A study of Mus musculus with 3 samples.

Results

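The genes described here are p53 itself, its textbook targets and regulators, and other inhibitors and stress proteins that hold back the cell cycle in the mouse pancreas. The set holds 10 genes (Trp53, Cdkn1a, Cdkn1b, Cdkn2a, Mdm2, Ccng1, Gadd45a, Gadd45b, Gadd45g and Gdf15), chosen by name with earlier results of these data known. Every probe whose RefSeq accession belongs to one of them was taken. That gave 12 of 55664 probes and 10 of the 21150 genes that could be named on the array. Expression was measured on 3 Agilent 1-colour mouse arrays, 1 each for ADM, duct and acinar cells. ADM, acinar-to-ductal metaplasia, is the conversion in which an acinar cell loses its secretory features and takes on duct-like ones. Frozen pancreas of 3 wild-type mice, taken 48 h after caerulein pancreatitis, was laser-microdissected for each cell type. Caerulein acts like the gut hormone cholecystokinin and drives acinar cells to excess secretion. The 3 groups share genotype, agent and time, and the groups hold no uninjured pancreas. Whether an array carries RNA of 1 mouse or of several, how the cells were recognised, and the age and sex of the mice are not given in the sources used here.

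The transcription factor p53 is stabilised when DNA or ribosome synthesis is disturbed, and it then switches on genes that stop division or kill the cell. Cdkn1a encodes p21, which binds and inhibits cyclin-dependent kinases, and Mdm2 encodes the ubiquitin ligase that degrades p53, so p53 drives its own inhibitor. Cdkn1b (p27) and Cdkn2a (p16 and p19ARF from overlapping reading frames) restrain the cycle by routes that need not pass through p53, and the Gadd45 proteins link stress to the p38 and JNK kinase pathways. In the injured pancreas these genes are of interest because acinar cells and metaplastic cells can re-enter the cell cycle during repair.

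A level is the log2 of the background-subtracted spot signal minus the 75th percentile of its array, so 0 is the 75th percentile, and the error given with it is the scanner software's own estimate for the spot. With 1 array a group there is no replicate error and no test between groups, and differences are described at a 2-fold threshold. The 75th-percentile signal was 72.2 intensity units on the ADM array, 95.7 on the duct array and 35.2 on the acinar array. Well above background were 49.7%, 50% and 40.7% of their probes. Repeated spots of a probe well above background differed by a median SD of 0.11, 0.090 and 0.12 log2 units. The labels fitted the marker genes: 10 acinar markers summed to 3408, 645 and 15330 times the 75th-percentile signal on the ADM, duct and acinar arrays, and 10 duct markers to 67.3, 109.6 and 19.6. Genes of both sets were well above background on every array. On the ADM, duct and acinar arrays these were 10, 9 and 10 acinar markers and 9, 9 and 7 duct markers. Cftr, the chloride channel of duct cells, was not well above background on any of the 3 arrays.

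Cdkn1a was well above background in ADM cells and in neither duct nor acinar cells. Cdkn2a had the same calls, but its ADM signal lay at the detection limit. Gadd45b was also more than 2-fold higher in ADM than in both other cell types. Cdkn1b, Mdm2 and Gadd45a were high in ADM and duct cells and low in acinar cells, while Ccng1 and Gadd45g were high in ADM and acinar cells and low in duct cells. Against acinar cells, ADM exceeded 2-fold upward in 5 of the 10 genes and downward in 0, beside 21.8% and 22.0% of the 13632 genes compared. Against duct cells, ADM exceeded 2-fold upward in 5 and downward in 1, beside 21.6% and 24.8% of 14475 genes. Between duct and acinar cells 8 of the 10 could be compared, and duct exceeded 2-fold upward in 3 and downward in 4, beside 27.4% and 24.6% of 13826 genes. The median difference of the members was 0.79 log2 units for ADM minus acinar, 1.13 for ADM minus duct and −0.55 for duct minus acinar, against 0.00, −0.05 and 0.00 over all genes compared. In both ADM comparisons Cdkn1a and Cdkn2a enter as bounds, through the ADM array alone. Of the 8 genes well above background on all 3 arrays, ADM exceeded acinar 2-fold in 4 and was below it in 0, beside 17.7% and 21.6% of 9539 genes. It exceeded duct in 4 and was below it in 1, beside 18.0% and 21.5%. Every array enters 2 of these comparisons, so they are not independent of each other. The genes were chosen with earlier results of these data known, so the counts are descriptions only. In microdissected tissue, more cells of a type cannot be told apart from more RNA per cell.

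**Figure D1:**
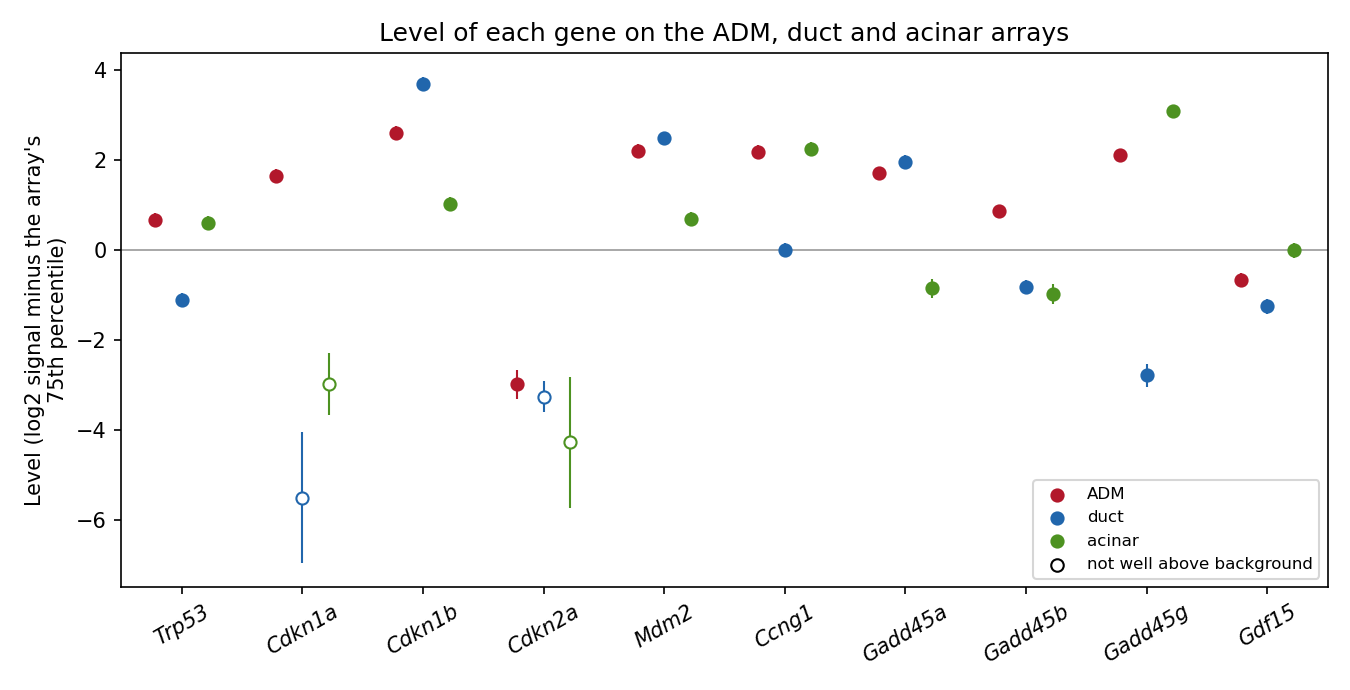
Level of each gene (y axis, log2 signal minus the 75th percentile of the array) on the ADM, duct and acinar arrays, for the probe that stands for the gene. Bars are the scanner software's error, open circles mark signals not well above background, and levels are to be compared between arrays within a gene only; Cdkn1a and Cdkn2a are well above background in ADM alone, Cdkn2a barely so, and Gadd45g is low in duct alone.

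Trp53, which encodes p53, was as high in ADM as in acinar cells and lower in duct cells. Its probe was spotted 2 times on each array, with signals of 110 and 120 in ADM, 41.7 and 47.4 in duct, and 50.9 and 56.4 in acinar, and its levels were 0.67 ± 0.15, −1.11 ± 0.16 and 0.61 ± 0.15. Both ADM spots lay above all others, and the duct and acinar spots did not overlap but lay close before division by the 75th percentile. ADM exceeded duct 3.43-fold (1.78 ± 0.22 log2 units) and differed from acinar by 0.06 ± 0.21, less than the error. Duct was 3.28-fold lower than acinar (−1.71 ± 0.22). With normexp background correction these differences shrank to 0.97 for ADM minus duct and −0.75 for duct minus acinar, inside 2-fold.

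Mdm2, the ligase that marks p53 for degradation, did not follow the transcript of p53. Its signal was 332 in ADM, 534 in duct and 56.7 in acinar, at levels of 2.20 ± 0.15, 2.48 ± 0.14 and 0.69 ± 0.15. Duct and ADM cells were thus both high and acinar cells low. ADM was 2.86-fold higher than acinar (1.52 ± 0.21) and duct 3.47-fold higher than acinar (1.79 ± 0.21), and ADM and duct lay within 2-fold (−0.28 ± 0.20). Of all genes compared, 14.2% differed between ADM and acinar by as much or more in the same direction.

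Ccng1, which encodes cyclin G1, a p53 target that recruits a phosphatase to MDM2, showed the opposite order. Its signal was 326 in ADM, 95.7 in duct and 167 in acinar, and the levels were 2.18 ± 0.15, 0.00 ± 0.15 and 2.25 ± 0.15. The duct array was the low one, and the ADM and acinar levels differed by −0.07 ± 0.21, less than the error. ADM was 4.52-fold higher than duct (2.18 ± 0.21), and duct was 4.75-fold lower than acinar (−2.25 ± 0.21), or 1.58 and −1.36 with normexp. Trp53 and Ccng1 were therefore both low in duct cells, where Mdm2 was high.

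Cdkn1a was read by 2 probes of different transcript accessions, and both separated ADM from the other arrays. The brighter one was spotted 10 times on each array. Its signals ran between 211 and 244 in ADM, between 1.99 and 2.27 in duct, and between 1.77 and 9.10 in acinar. All 10 ADM spots were well above background, and 0 of 10 were on the duct array and 0 of 10 on the acinar array, so the groups did not overlap. The mean level was 1.65 in ADM, with an SD between spots of 0.075, against −5.49 in duct (SD 0.066) and −2.97 in acinar (SD 0.74), where the last 2 have no more meaning than an upper limit. Set against the lowest signal well above background on those arrays, 9.88 in duct and 8.54 in acinar, the ADM level of Cdkn1a was higher by at least 30.3-fold over duct and at least 12.9-fold over acinar. With normexp the bounds were 2.43 log2 units over duct and 1.71 over acinar, against 4.92 and 3.69 here. Only 0.566% and 1.32% of the genes compared were as high or higher in ADM by the same reckoning.

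The second Cdkn1a probe, with 1 spot, had a signal of 46.3 in ADM, 5.45 in duct and 2.79 in acinar. It was well above background in ADM alone, and gave a difference of at least 2.63 log2 units over duct and at least 1.40 over acinar. It was the only gene of the 10 with a second probe above background, so the direction of the other 9 rests on 1 probe each.

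**Figure D2:**
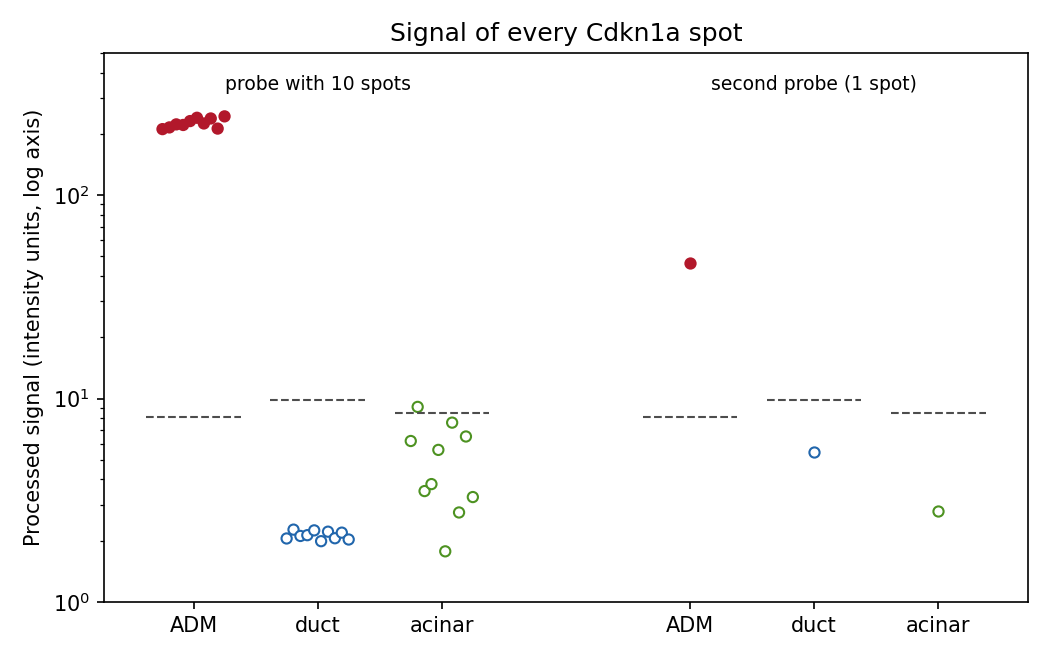
Processed signal (y axis, intensity units on a log axis) of every Cdkn1a spot on the ADM, duct and acinar arrays, at left the probe with 10 spots and at right the second probe. Filled circles are well above background, and the dashed line is the detection floor of each array; all ADM spots of the first probe lie at or above 211, and no duct or acinar spot exceeds 9.10.

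RefSeq places 2 transcription starts of Cdkn1a on chromosome 17, and the 250 bases before each are shown because this gene had the clearest difference and because p53 acts on it through DNA elements upstream. The windows are on the plus strand of GRCm38.p6, at chr17:29090729-29090978 for the upstream start and chr17:29093519-29093768 for the downstream one. The array design was annotated on mm9, so the windows are not tied to a probe. Capitals mark matches to the motifs searched on both strands, here the p53 half-site in the upstream window and the GC box GGGCGG in the downstream one.

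Cdkn1a upstream start: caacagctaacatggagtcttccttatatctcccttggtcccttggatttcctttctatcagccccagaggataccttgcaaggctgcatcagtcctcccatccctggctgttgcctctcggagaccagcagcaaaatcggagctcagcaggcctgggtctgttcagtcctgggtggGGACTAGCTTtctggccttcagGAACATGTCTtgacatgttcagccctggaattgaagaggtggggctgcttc
Cdkn1a downstream start: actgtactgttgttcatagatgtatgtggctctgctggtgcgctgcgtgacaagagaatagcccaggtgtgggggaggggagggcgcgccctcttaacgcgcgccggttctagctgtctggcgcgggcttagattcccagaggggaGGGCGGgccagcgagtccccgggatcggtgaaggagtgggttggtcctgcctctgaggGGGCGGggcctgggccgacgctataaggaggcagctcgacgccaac

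The upstream window held 2 p53 half-sites, from 73 to 64 and from 51 to 42 bases before the start, and the downstream window held GC boxes at 104 to 99 and 46 to 41 bases before the start and no half-site. Over the 13 windows of the 10 genes, 5 held a p53 half-site, those of Trp53, Cdkn1a, Mdm2, Ccng1 and Gadd45a, against 7.13% of 32851 RefSeq windows of the same length. Most of the genes were picked for their known link to p53, and a match in letters is a description of the window. Of the genes with a half-site, Cdkn1a was high in ADM alone, Mdm2 and Gadd45a in ADM and duct, and Trp53 and Ccng1 in ADM and acinar. Whether p53 acted at these sites was not tested.

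Cdkn1b, which encodes p27, the inhibitor that keeps resting cells out of the cycle, was highest in duct cells. Its signal was 438 in ADM, 1237 in duct and 71.8 in acinar, and its levels were 2.60 ± 0.14, 3.69 ± 0.14 and 1.03 ± 0.15. ADM lay between the other arrays. It was 2.13-fold lower than duct (−1.09 ± 0.20) and 2.98-fold higher than acinar (1.57 ± 0.21), and duct was 6.34-fold higher than acinar (2.66 ± 0.21). The 2 related inhibitors Cdkn1a and Cdkn1b thus had different leading arrays.

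Cdkn2a was at the limit of the assay. The brighter of its 2 probes gave a signal of 9.14 in ADM, 10 in duct and 1.82 in acinar, and was called well above background in ADM alone, where the lowest such signal was 8.14. The second probe gave 1.90, 2.22 and 1.90 and was not above background on any array. The ADM signal did not exceed the duct signal in intensity units, and the bound over duct was 1.21-fold with none over acinar. A level of the p16 and p19ARF transcripts could not be set for any of the 3 cell types at this signal.

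The other genes of this class were read from a list of 7 inhibitors and pocket proteins. Counts of this list and of later gene and marker lists stand beside the shares of all genes compared. At least 2-fold higher and lower were 21.8% and 22.0% for ADM minus acinar and 21.6% and 24.8% for ADM minus duct. For duct minus acinar they were 27.4% and 24.6%. Counts and shares include bounds, and a gene well above background on 1 of the 2 arrays cannot be called lower there. ADM exceeded acinar 2-fold in 2 and was below it in 2, and exceeded duct in 3 and was below it in 2, while duct had 1 higher and 1 lower than acinar. Cdkn2b, which encodes p15, an inhibitor of CDK4 and CDK6, was at least 3.01 log2 units higher in ADM than in acinar and 1.29 higher than in duct. Cdkn2c (p18) and Cdkn2d (p19INK4d), of the same inhibitor family, went the other way in ADM, at −1.31 and −1.59 against acinar and −1.51 and −1.49 against duct. Rb1, the pocket protein that these inhibitors keep active, was 3.45 higher in ADM than in duct and 1.06 higher than in acinar. Cdkn1c (p57) was 1.68 higher in ADM than in duct and at least 0.82 higher than in acinar.

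The 3 Gadd45 genes, small acidic proteins that activate the kinase MAP3K4, had 3 different patterns. The 250 bases before each start are shown beside each other because these close relatives differed so much between the arrays. They lie in GRCm38.p6 at chr6:67037408-67037657 on the minus strand for Gadd45a, chr10:80929841-80930090 on the plus strand for Gadd45b and chr13:51846425-51846674 on the plus strand for Gadd45g, and each is written on the strand of its gene. Capitals mark the p53 half-site, the TATA box TATAAA, the GC box GGGCGG, the CCAAT box CCAAT and the ATF4-CHOP composite TGATGNAA, on either strand.

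Gadd45a: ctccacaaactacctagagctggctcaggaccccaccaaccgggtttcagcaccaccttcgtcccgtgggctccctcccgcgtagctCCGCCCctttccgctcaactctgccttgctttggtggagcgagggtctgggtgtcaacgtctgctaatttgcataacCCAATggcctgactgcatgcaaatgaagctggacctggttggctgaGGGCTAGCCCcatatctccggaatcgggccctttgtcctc
Gadd45b: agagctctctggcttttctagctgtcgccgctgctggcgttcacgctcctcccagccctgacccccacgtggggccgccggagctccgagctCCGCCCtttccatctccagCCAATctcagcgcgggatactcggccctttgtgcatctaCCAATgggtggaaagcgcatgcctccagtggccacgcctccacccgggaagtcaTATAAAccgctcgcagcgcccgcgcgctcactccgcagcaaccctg
Gadd45g: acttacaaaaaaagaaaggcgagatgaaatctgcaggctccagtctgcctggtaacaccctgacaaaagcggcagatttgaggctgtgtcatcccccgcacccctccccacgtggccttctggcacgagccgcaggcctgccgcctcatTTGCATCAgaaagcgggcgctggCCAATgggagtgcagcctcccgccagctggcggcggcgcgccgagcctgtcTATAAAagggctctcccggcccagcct

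Gadd45a held a p53 half-site from 40 to 31 bases before its start, and Gadd45b and Gadd45g held none in these windows. Gadd45b and Gadd45g held a TATA box, from 46 to 41 and from 27 to 22 bases before the start, which 12.4% of all windows do. Gadd45g held the ATF4-CHOP composite from 101 to 94 bases before its start, found in 3.45% of all windows. GC boxes and CCAAT boxes occurred in 32.7% and 33.8% of windows. The AP-1 site TGANTCA and the CRE TGACGTCA, searched as well, were in 6.75% and 1.55% of all windows and in 0 of the 13 windows of these genes.

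Gadd45a had a signal of 236 in ADM, 372 in duct and 19.5 in acinar, at levels of 1.70 ± 0.15, 1.96 ± 0.15 and −0.85 ± 0.21. It was high in ADM and duct cells and low in acinar cells, the same order of arrays as Mdm2 and Cdkn1b. ADM was 5.89-fold higher than acinar (2.56 ± 0.26) and duct 7.02-fold higher than acinar (2.81 ± 0.26), and ADM and duct differed by −0.25 ± 0.21. With normexp the values over acinar were 1.38 for ADM and 1.72 for duct, still past 2-fold.

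Gadd45b, an early-response gene of NF-kB and TGF-beta signalling, had a signal of 131 in ADM, 54.2 in duct and 18.0 in acinar. Its levels were 0.86 ± 0.15, −0.82 ± 0.16 and −0.97 ± 0.22, so ADM was the high array and the other arrays were alike within error (0.15 ± 0.27). ADM was 3.54-fold higher than acinar (1.82 ± 0.27) and 3.20-fold higher than duct (1.68 ± 0.22). Normexp background correction brought both below 2-fold, at 0.76 and 0.96.

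Gadd45g was the gene with the widest spread among those measured on all arrays. Its signal was 311 in ADM, 13.9 in duct and 298 in acinar, and its levels were 2.11 ± 0.14, −2.78 ± 0.25 and 3.08 ± 0.15. Duct cells were far below the others, though still well above background. ADM was 29.6-fold higher than duct (4.89 ± 0.29), which only 0.594% of genes matched or passed, and 1.96-fold lower than acinar (−0.97 ± 0.20, or −0.41 with normexp), inside 2-fold. Duct was 58.2-fold lower than acinar (−5.86 ± 0.29), and normexp reduced the differences to 2.69 for ADM minus duct and −3.10 for duct minus acinar. The 10 acinar markers were lower in duct than in acinar in 10 (median −6.17), higher in ADM than in duct in 9 (median 3.33) and lower in ADM than in acinar in 9 (median −2.50), where Gadd45g lay inside 2-fold. Their part in the Gadd45g values was not tested.

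Gdf15, which encodes a secreted stress cytokine of the TGF-beta superfamily, differed little. Its signal was 45.6 in ADM, 40.4 in duct and 35.0 in acinar, a range of 1.30-fold before scaling, and division by the 75th percentile changed the order, to levels of −0.66 ± 0.16, −1.25 ± 0.16 and −0.01 ± 0.16. Duct was 2.36-fold lower than acinar (−1.24 ± 0.23), and ADM differed from acinar by −0.65 ± 0.23 and from duct by 0.58 ± 0.23. Under median scaling the duct minus acinar value was −0.85 and with normexp −0.64, both inside 2-fold. The order of the 3 arrays in Gdf15 thus differed between unscaled and scaled signals. Each of the 3 differences kept its sign in all 8 alternatives, though only normexp and the other scalings could move them noticeably.

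**Figure D3:**
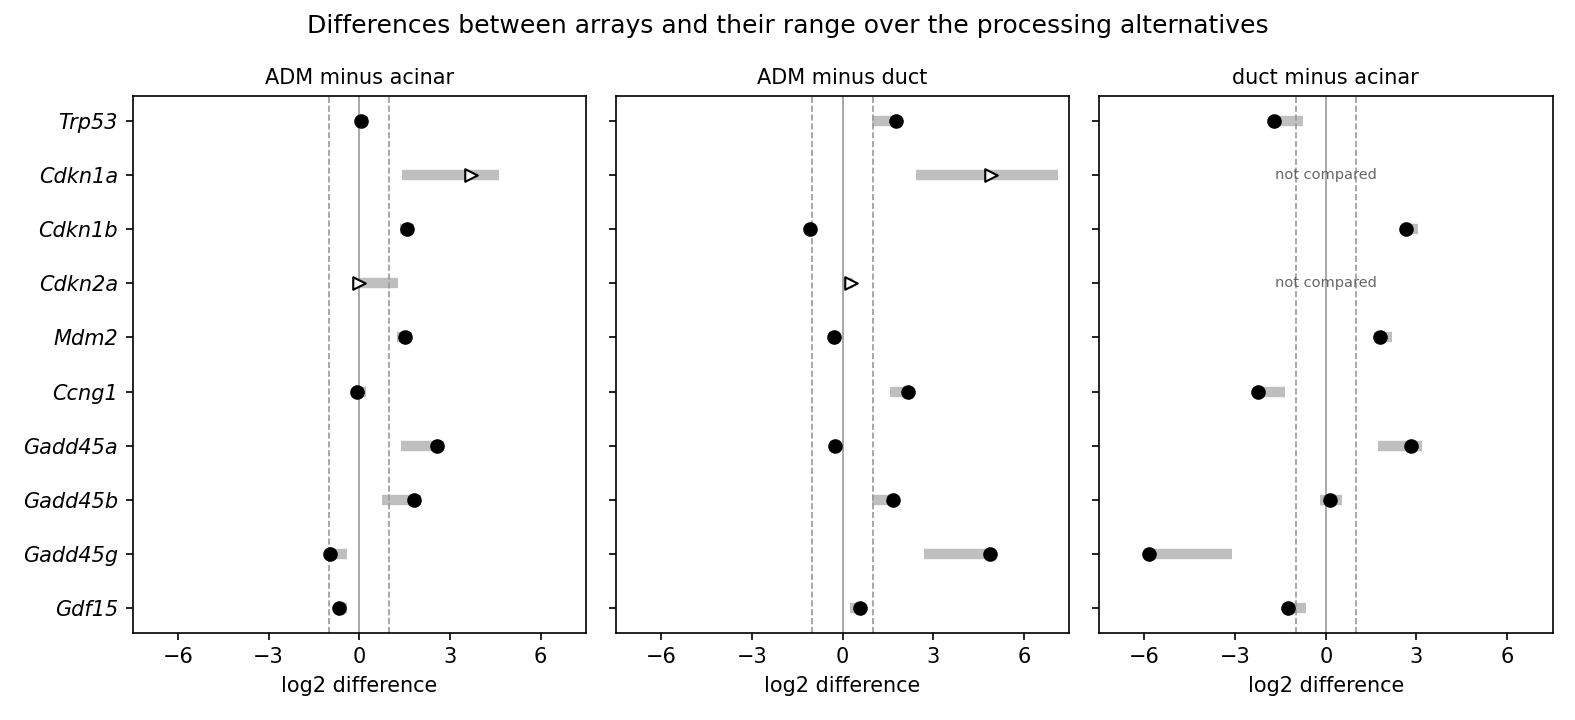
Log2 difference of each gene (x axis) for ADM minus acinar, ADM minus duct and duct minus acinar. Black circles are measured differences, open triangles are lower bounds, grey bars run over the values under the processing alternatives, and dashed lines mark 2-fold; Cdkn1a and Cdkn2a are not compared between duct and acinar, where neither array was above background.

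Of the 8 genes well above background on all 3 arrays, ADM lay between duct and acinar in 6, was highest in 2 (Trp53, by less than the error over acinar, and Gadd45b) and lowest in 0. Among all 9539 such genes ADM was between in 46.1%, highest in 22.3% and lowest in 31.6%. Of the 6 members between, Ccng1 lay below acinar by less than the error (−0.07 ± 0.21). Before scaling, Ccng1, Gadd45g and Gdf15 had their highest signals in ADM, at 326, 311 and 45.6 against 167, 298 and 35.0 in acinar. Counting bounds as well, Cdkn1a and Gadd45b in ADM exceeded both other cell types 2-fold and 0 members were as far below both, beside 8.9% and 7.57% of 13322 genes. Markers of other cells are set beside these genes. The 10 macrophage markers summed to 205, 49.4 and 64.4 times the 75th-percentile signal in ADM, duct and acinar, all 10 were well above background in ADM and duct and 9 in acinar (not Cd14), and ADM exceeded acinar 2-fold in 9 and was below it in 0, and exceeded duct in 8 and was below it in 1, Cd14 (−1.21). The 10 fibroblast and stellate markers summed to 312, 314 and 82.5, with 9, 10 and 8 well above background (Des not in ADM, Thy1 and Des not in acinar), and ADM exceeded acinar 2-fold in 7 of 9 compared and was below it in 1, Acta2 (−3.63). It exceeded duct in 0 and was below it in 3, which were Acta2 (−3.87), Thy1 (−2.33) and Des (at most −2.81). Of 6 neutrophil markers on the array, 4, 1 and 1 were well above background and they summed to 166, 149 and 218. Most of each sum was Csf3r, well above background on all 3 arrays at levels of 7.35, 7.22 and 7.77. Mpo and Cxcr2 were not well above background on any array, and S100a8, S100a9 and Elane were so in ADM alone. The 7 islet markers, all well above background on the 3 arrays, summed to 1166, 652 and 745. The 5 adipocyte markers summed to 20.9, 1.61 and 13.0, with 4, 3 and 3 well above background (Adipoq on no array). The 3 erythrocyte markers summed to 9.55, 0.412 and 1.29, with 1 well above background on each array and Hbb-b1 and Alas2 on none. The islet, adipocyte and erythrocyte sums were highest on the ADM array, as was the macrophage sum. Endothelial markers summed to 13.8, 20.85 and 14.7, and nerve and Schwann markers to 29.4, 48.1 and 37.9, both highest in duct. T and B cell markers summed to 5.8, 3.2 and 6.0, highest in acinar. The part of these cells in the Cdkn1a and Gadd45b values was not tested.

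Further targets of p53 were read from 3 lists of arrest and feedback, apoptosis, and metabolism and repair genes, 41 genes in all. ADM was at least 2-fold higher than duct in 18 of 41 (43.9%) and lower in 7 (17.1%), with a median of 0.77, beside 21.6% and 24.8% of all genes. Against acinar, ADM was higher in 12 (29.3%) and lower in 6 (14.6%), with a median of 0.46, beside 21.8% and 22.0%. Duct was higher than acinar in 10 of 35 compared (28.6%) and lower in 13 (37.1%), beside 27.4% and 24.6%. The median there was −0.13. All 41 were well above background in ADM. In acinar this held for 12 of 16 arrest, 6 of 12 apoptosis and 9 of 13 metabolism genes. In duct it held for 13, 10 and 12. Genes dim in the other cell type enter as bounds and could not be counted lower in ADM. Of the 12 these were Apaf1, Casp1, Polh, Fdxr and Tap1, and of the 18 Mdm4, Plk3, Gtse1, Eda2r and Fdxr. With this limit, the targets stood in both directions in every comparison.

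Among arrest and feedback targets, Zmat3, an RNA-binding growth suppressor, was 3.43 log2 units higher in ADM than in duct and 1.08 higher than in acinar. Trp53inp1, a stress protein that assists p53, was 2.98 and 1.51 higher in ADM. Its 2 probes opposed each other between duct and acinar (−1.47 and 0.98). Rchy1, a ubiquitin ligase that also acts on p53, was lower in ADM than in duct (−2.78) and acinar (−3.60), and Sfn, the 14-3-3 sigma gene, had −2.10 against acinar and 0.88 against duct. Rps27l, a ribosomal protein paralogue, was lower in duct than in acinar (−2.02) and 1.09 higher in ADM than in duct. Mdm4, the partner of MDM2 that holds p53 inactive, was well above background in ADM alone, by at least 1.7 log2 units over duct and at least 0.46 over acinar. Ppm1d, the phosphatase that ends p53 signalling, had −1.53 in ADM against duct and −0.54 against acinar. Of the apoptosis targets, Bax was 1.01 higher in ADM than in duct and 2.32 higher than in acinar, and Bbc3, which encodes PUMA, 2.87 and 1.5 higher. Perp, a desmosome protein of dying and stratified epithelia, was 2.22 higher in ADM than in duct and level with acinar (0.08). Siva1, a proapoptotic protein, was 1.77 higher in ADM than in acinar and 0.80 above duct. Pmaip1, which encodes NOXA, was lower in ADM than in duct (−2.14), and the death receptor Tnfrsf10b was lower in ADM than in acinar (−1.61). Of the metabolism targets, Sesn2, a sestrin that restrains mTORC1, was 3.97 higher in ADM than in duct and 2.51 higher than in acinar. Tigar, which slows glycolysis, was 2.02 higher in ADM than in acinar, while its 2 probes opposed each other between ADM and duct (−0.72 and 0.70). Gls2, a glutaminase, was highest in acinar, with −3.79 for ADM minus acinar and −5.88 for duct minus acinar, and ADM was 2.09 above duct. Tap1, a peptide transporter of antigen presentation, was 2.86 higher in ADM than in duct. The 2 probes of the repair polymerase Polk opposed each other between duct and acinar (−2.01 and 0.59).

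Kinases and regulators that act on p53 were read from another list. Of 15 compared, ADM exceeded acinar 2-fold in 0 and was below it in 3, ADM exceeded duct in 3 and was below it in 1, and duct exceeded acinar in 1 and was below it in 6. Sirt1, a deacetylase of p53, was lower in ADM than in acinar (−1.45) and duct (−2.76). Hipk2, a kinase that phosphorylates p53, was 2.25 higher in ADM than in duct and its 2 probes had opposite signs against acinar (−0.13 and 0.85). Trp53bp1, a DNA break protein, was lower in ADM (−1.83) and in duct (−1.62) than in acinar, although its second probe gave −0.15 for ADM minus acinar. Atr, a kinase of the response to stalled replication, was lower in ADM (−1.09) and in duct (−1.29) than in acinar. Atm, the kinase of the response to broken DNA, had 0.96 for ADM minus duct, where its second probe gave 3.75 with no bound applied.

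**Figure D4:**
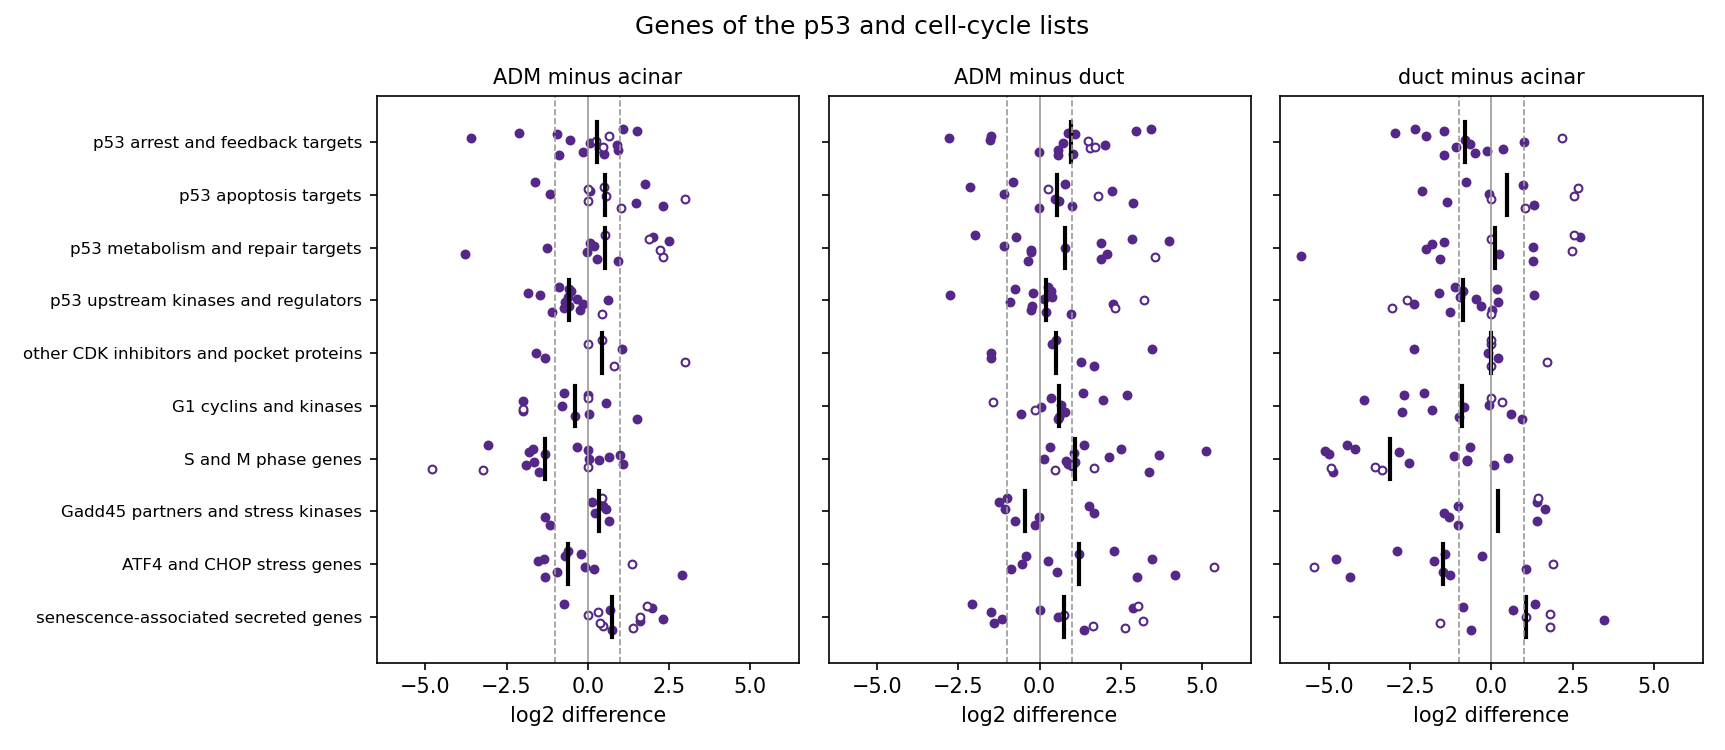
Log2 difference (x axis) of each gene of 10 lists around p53 and the cell cycle, for ADM minus acinar, ADM minus duct and duct minus acinar. Filled circles are measured and open circles are bounds, black bars are list medians and dashed lines mark 2-fold; S and M phase genes lie lowest in duct cells, with medians of 1.1 for ADM minus duct and −3.11 for duct minus acinar.

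The cell-cycle genes that these inhibitors act on are set beside them. Of the S and M phase genes compared, ADM exceeded duct 2-fold in 9 of 15, with 0 below it (median 1.1). ADM was below acinar in 9 of 17 and above in 1 (median −1.33), and duct was below acinar in 11 of 16 and above in 0 (median −3.11). Rrm1, a subunit of the enzyme that makes deoxynucleotides, was 5.12 higher in ADM than in duct and level with acinar (0.01). Mki67, the proliferation marker, was 3.67 higher in ADM than in duct and had −1.33 against acinar. Ube2c, a ubiquitin-conjugating enzyme of mitotic exit, had −3.06 for ADM minus acinar and −4.44 for duct minus acinar, and the mitotic genes Ccnb2 and Plk1 had −1.91 and −1.80 for ADM minus acinar. Birc5, which encodes survivin, had −4.88 for duct minus acinar, and its 2 probes opposed each other between ADM and duct (3.38 and −0.15). Mki67 and Ube2c thus lay between duct and acinar in the ADM cells. Other genes of the list did not. Cdc20, the 1 gene above acinar 2-fold (1.09), was also 0.99 over duct, and Mcm2, Mcm5 and Mcm6 were highest in ADM as well. Pcna, the replication clamp that p21 binds, differed little, at −0.03 for ADM minus acinar and −0.26 for ADM minus duct.

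G1 cyclins and kinases exceeded duct 2-fold in ADM in 3 of 12 and were below it in 1, beside 21.6% and 24.8% of all genes. Against acinar, 1 of 11 was above 2-fold in ADM and 3 were below, beside 21.8% and 22.0%. The 1 gene higher than in acinar was Ccnd1, which encodes cyclin D1 (1.52, and 0.58 over duct). Cdk4, its kinase, lay within 2-fold in both (0.57 and 0.65), and Cdk2, the main kinase that p21 inhibits, was not well above background on any array. The second probe of Cdk4 gave −0.06 and −0.23. E2f1, the transcription factor of S phase entry, had −1.98 for ADM minus acinar, 1.96 for ADM minus duct and −3.94 for duct minus acinar. Ccne1, which encodes cyclin E1, had −1.98 for ADM minus acinar and −2.76 for duct minus acinar, so both E2f1 and Ccne1 were highest in acinar cells. Myc, a driver of cell growth, was 1.35 higher in ADM than in duct, and E2f3, an E2F activator, 2.68 higher; the E2f3 duct minus acinar value was −2.69.

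Stress genes of the ATF4 and CHOP pathway, which can induce Gadd45a and Gdf15 without p53, exceeded duct 2-fold in ADM in 6 of 11, with 0 below it (median 1.22). Against acinar, ADM was higher in 2 and lower in 3 (median −0.60), and duct was lower than acinar in 8 and higher in 2 (median −1.49). Atf3, an early stress factor, was 4.18 higher in ADM than in duct and Nupr1, a stress protein first found in pancreatitis, 3.45 higher. Asns, the asparagine synthetase that ATF4 induces, had 3.02 for ADM minus duct and −4.34 for duct minus acinar. Vldlr, a lipoprotein receptor induced by ATF4, had −2.90 for duct minus acinar, and Fgf21, a stress hormone of the pancreas, −1.52 for ADM minus acinar. Ddit3, which encodes CHOP, was not well above background in acinar, over which ADM was at least 1.37 and duct at least 1.91 higher, and ADM differed from duct by −0.54. Cebpb, a partner of CHOP, was the other gene higher in duct than in acinar (1.06).

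Secreted genes linked to senescence exceeded acinar 2-fold in ADM in 6 of 13, with 0 below it (median 0.74), beside 21.8% and 22.0% of all genes. Il1b, Cxcl1 and Tnf among the 6 were bounds, as were Cxcl2, Mmp3, Igfbp3 and Plaur. These genes entered through the ADM array alone and could not be counted below acinar. Against duct, 6 of 13 were above 2-fold in ADM and 4 below (median 0.74), and duct exceeded acinar in 5 of 9 and was below it in 1 (median 1.05). Cxcl1, Cxcl2, Igfbp4 and Tnf among the 6 against duct were bounds. Between duct and acinar, Il1b, Igfbp3, Plaur and Igfbp4 were bounds. Timp1, an inhibitor of matrix proteases, was 1.98 higher in ADM than in acinar and 2.87 higher than in duct, and Igfbp7, an insulin-like growth factor binding protein, was 2.32 higher than in acinar and had −1.15 against duct. Igfbp4, which binds insulin-like growth factors, was 1.60 higher in ADM than in acinar. Vegfa, a growth factor of vessels, and Plaur, the urokinase receptor, were lower in ADM than in duct (−2.08 and −1.5). Il6 and Il1a, the best-known secreted genes of senescent cells, were not well above background on any array. The macrophage and fibroblast markers given above were higher in ADM than in acinar as well, and their part in these counts was not tested.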

How the data were processed

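Deposited scanner tables give linear intensity for each spot. The scanner software (Feature Extraction 11.5.1.1, per the file headers) had removed background and the spatial trend within each array, with no scaling between arrays. Per the labels' protocols, 1.181 ng of RNA was amplified and 2.0 µg of cDNA labelled with Cy3. The deposited value table holds log2 values, each offset from log2 of the processed signal by the array's own constant (6.17, 6.57 and 5.13 for ADM, duct and acinar), to within 0.001 in all 32905 probes matched; its column medians were −0.56, −0.63 and −0.57, it is neither centred per probe nor turned in sign, and how its probes were chosen was not stated.

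Controls (3671 of 62976 spots) and outlier spots (117, 110 and 115) were left out, the log2 values of a probe's spots were averaged, and the 75th percentile over 55664 probes was subtracted. No spot was saturated. A probe counted as well above background where over 50% of its spots were flagged so. Probes were named by unversioned RefSeq accession through a GRCm38.p6 table (28020 probes, 21150 genes), and the probe with the highest mean level stood for a gene. A gene was compared where 1 of the 2 arrays was well above background; the other side, if dim, took its own level or that array's lowest level well above background, whichever was higher, and the difference was written as a bound. Second-probe values of list genes are plain level differences, with no bound applied to a dim side. Errors of differences combine the 2 spot errors and cover the scanner only. Lists held 136 genes, all on the array. Members and lists were chosen with earlier results of these data known. All members are named, and from each list up to 3 genes with the largest measured differences in each comparison and those tied directly to a member. Ddit3, Cebpb, Il6, Il1a, Gfral, Ret and the marker genes fall outside this rule and were chosen after their values were seen. Alternatives were normexp (offset 50, limma 3.58.1), other scalings, probe rules and filters, and the authors' deposited table. The difference calculation was tested on simulated data. Promoter windows came from RefSeq, GRCm38.p6. Python 3.11.15 and R 4.3.3 were used.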

Additional observations from a re-analysis of the deposited data

How the results depend on the processing

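Of 28 differences of single genes, 18 were at least 2-fold, 13 of these kept direction and 2-fold under every alternative that gave a value, and 0 of the 18 changed sign. Within 2-fold, Ccng1 changed sign for ADM minus acinar in 4 of 8 alternatives, normexp and each of the other scalings (up to 0.22). Gadd45b changed sign for duct minus acinar with normexp (−0.20). The 8 genes well above background on all 3 arrays rest on 1 probe each. For these genes the mean of probes and the filters could not move a value. The deposited table moved it little, being the same signal offset by a constant. Only normexp and the other scalings could change their calls. Counts that moved by over 1.5 times were few. With normexp, ADM exceeded duct 2-fold in 3 genes in place of 5, and 2 in place of 4 were lower in duct than in acinar; the shares of all genes fell too, to 10.4% against 21.6% and to 10.9% against 24.6%. With the second-brightest probe 1 gene, Cdkn1a, was left, higher in ADM than in acinar (1) and than in duct (1), with 0 lower, and duct minus acinar had no value. The 4 measured calls of Trp53 and Gadd45b and the Gdf15 call were the ones lost. Median scaling moved the median difference of all genes to 0.28 for duct minus acinar and −0.20 for ADM minus duct, and duct held 64.7% of the genes at least 2-fold apart from acinar, against 52.7%. No paired analysis was possible because each group has 1 array, and no array could be left out. Signal near background limits Cdkn2a on all arrays and Cdkn1a in duct and acinar, and the scanner's error does not cover dissection, amplification or differences between mice.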

Other observations

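The kinases that pass on the signal of the Gadd45 proteins did not share a direction. Of 8 compared, ADM exceeded acinar 2-fold in 0 and was below it in 2, ADM exceeded duct in 2 and was below it in 2, and duct exceeded acinar in 4 and was below it in 4. Map3k4, the kinase that Gadd45 proteins bind, was 1.69 log2 units higher in ADM than in duct, had 0.24 against acinar, and was lower in duct than in acinar (−1.45). Mapk8, which encodes JNK1, had 1.51 for ADM minus duct and −1.03 for duct minus acinar, and Map2k6, which activates p38, was lower in ADM (−1.31) and in duct (−1.30) than in acinar. Its relative Map2k3 had −1.17 for ADM minus acinar. Map2k4, an activator of JNK, had 1.41 for duct minus acinar and 0.67 for ADM minus acinar, where its second probe gave −0.82, and Mapk9, which encodes JNK2, had −1.25 for ADM minus duct. The 2 probes of Mapk14, which encodes p38 alpha, opposed each other between ADM and duct (−1.08 and 3.58), so its direction is not given.

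Gfral and Ret, which together form the receptor of GDF15 on hindbrain neurons, were not well above background on any of the 3 arrays. Furin, a protease that can process precursors of this family, lay within 2-fold in every comparison, at −0.81 for ADM minus acinar, −0.91 for ADM minus duct and 0.10 for duct minus acinar.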
